A study of Comephorus dybowskii and Comephorus baikalensis and Batrachocottus nikolskii with 4 samples.

Results

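Tropomyosin and tropomodulin are proteins of the thin filament, and 6 of the 792 gene identifiers with normalized values in skeletal muscle of Baikal sculpins carried one of these titles. They were taken by title from the study's annotation of assembled contigs, 3 with a tropomyosin and 3 with a tropomodulin title, and every one of the 6 is described here. The annotation was available in part only, so further members among the 792 may be missing. After their first mention, identifiers are written without their common prefix TRINITY_. The 792 are the identifiers that the study called different between at least 1 pair of species in the same libraries, so a difference among them is not independent evidence, and tropomyosin or tropomodulin transcripts outside the 792 or without a title were not analysed here.

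Muscle RNA was sequenced as 4 libraries, each 1 species, with no transgene or treatment in any group. The pelagic genus *Comephorus* is given by *C. baicalensis* and *C. dybowski* and the benthic genus *Batrachocottus* by *B. nikolskii* and *B. multiradiatus*, all wild-caught sexually mature adults, and the labels give 15 individuals for each pool. The paper's methods describe pools of more fish per species than the labels do. A pool gives no spread within a species, so the 2 species of a genus stood as its 2 samples in every test between genera. P-values and SEs rest on the spread between those species, moderated in each tool by the spread of all identifiers tested. They are thus not the spread of 1 identifier alone. Genus, habitat and ancestry coincide in this design and cannot be told apart. In bulk muscle, fewer cells of a type and less RNA per cell cannot be told apart either.

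Tropomyosin is a coiled-coil protein that lies end to end along actin filaments and, together with troponin, controls the access of myosin heads to actin in a calcium-dependent manner. The alpha-1 chain (*TPM1* in mammals) is a main tropomyosin of striated muscle, while products of *TPM4* are best known from the cytoskeleton in mammals, and zebrafish *tpm4a* is expressed in the heart and is needed for its contraction. Tropomodulins bind tropomyosin and cap the pointed end of the thin filament, at which actin subunits would otherwise be added or lost, and tropomodulin-4 (*TMOD4*) is the member of the family typical of skeletal muscle in mammals.

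The unnormalized tables held 55089540 read estimates for *C. baicalensis*, 55994846 for *C. dybowski*, 54508410 for *B. nikolskii* and 59156409 for *B. multiradiatus*. Levels are given as CPM, counts per 1000000 of a library size that the authors adjusted, 52881432, 55590390, 68019680 and 57041996 in the same order. The adjusted size of *B. nikolskii* lies farthest from its total. At these sizes a value of 0 allows up to 0.0567, 0.0540, 0.0441 and 0.0526 CPM in the same order. Intervals are at 95% and cover counting error only. Gene lengths were not used, so levels are compared between species. Where identifiers or lists are set side by side, their CPM and shares are of reads and not of transcript copies. Titles typical of fast muscle fibres, fixed as 15 identifiers of fast troponins and myosins, summed to 36536, 41532, 13175 and 12403 CPM in these libraries, against 2112, 2366, 488 and 194 CPM for 5 identifiers with slow or cardiac troponin titles. The slow or cardiac identifiers did not all go the same way between genera, and all 5 carry titles of more than 1 protein. Of the fast fibre identifiers, 1 was listed at 0 in *C. baicalensis* and 1 in *B. nikolskii*, and no slow or cardiac one was listed at 0.

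Among the tropomyosins, TRINITY_DN53_c0_g1 (tropomyosin alpha-1 chain) was the identifier with the most reads in both *Comephorus* species. It had 2220 CPM in *C. baicalensis*, 9203 CPM in *C. dybowski*, 124 CPM in *B. nikolskii* and 163 CPM in *B. multiradiatus*. The *Comephorus* and *Batrachocottus* values did not overlap, and *C. dybowski* was highest. This identifier held 0.213%, 0.914%, 0.0155% and 0.0157% of the total of read estimates listed for these species. Besides tropomyosin, contigs under this name were titled NADH dehydrogenase 1 subunit C2-like, lupus La protein and the RNA methyltransferase METTL5, so its reads are not all shown to be tropomyosin.

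TRINITY_DN9_c2_g1 (tropomyosin 4a), with this title alone, was abundant in 1 species of the 4. It had 1337 CPM in *C. baicalensis* (70717 read estimates) and 7.37 CPM in *C. dybowski* (410 read estimates), against 0.113 CPM in *B. nikolskii* (interval 0.0508 to 0.232) and 0.0920 CPM in *B. multiradiatus* (interval 0.0285 to 0.205). The intervals of both *Batrachocottus* libraries, which rest on 8 and 5 read estimates, overlap each other and lie below those of both *Comephorus* libraries. The unnormalized tables list this identifier for *Comephorus* only.

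TRINITY_DN66_c0_g1 (tropomyosin alpha-1 chain-like) had the opposite order between genera. Its levels were 6.55 CPM in *C. baicalensis*, 36.9 CPM in *C. dybowski*, 335 CPM in *B. nikolskii* and 403 CPM in *B. multiradiatus*. Both *Comephorus* libraries lay below both *Batrachocottus* libraries, and *C. baicalensis* was lowest. The name covers 6 titles in all, among them caveolae-associated protein 4b, a muscle protein of the plasma membrane, and ubiquitin carboxyl-terminal hydrolase 16, so this difference too belongs to a mixed set of contigs.

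All 3 tropomodulin identifiers were titled tropomodulin-4. TRINITY_DN3070_c1_g2, with this title alone, had 816 CPM in *C. baicalensis* (43156 read estimates). In the other libraries it had 1.12 CPM in *C. dybowski* (0.855 to 1.43), 1.34 CPM in *B. nikolskii* (1.08 to 1.64) and 0.867 CPM in *B. multiradiatus* (0.636 to 1.14), which rest on 62, 91 and 49 read estimates. The pelagic *C. dybowski* thus lay between the benthic species and its interval overlapped both of theirs, so the genera were not separated for this identifier.

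TRINITY_DN3070_c1_g1, its neighbour in the assembly's naming and also titled tropomodulin-4 alone, had a similar order at a lower level, with 28.6 CPM in *C. baicalensis*, 1.33 CPM in *C. dybowski*, 1.13 CPM in *B. nikolskii* and 0.453 CPM in *B. multiradiatus*. Again *C. baicalensis* stood apart, the intervals of *C. dybowski* (1.05 to 1.67) and *B. nikolskii* (0.893 to 1.41) overlapped, and *B. multiradiatus* was lowest (0.298 to 0.668). The files do not say whether the DN3070_c1 identifiers are copies, alleles or isoforms, and reads shared by them could be split between them.

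TRINITY_DN1118_c0_g1, with tropomodulin-4 among its titles, was higher in *Batrachocottus*. It had 1.07 CPM in *C. baicalensis* and 0.393 CPM in *C. dybowski*, against 35.5 CPM in *B. nikolskii* and 44.7 CPM in *B. multiradiatus*. Both *Comephorus* libraries, with 57 and 22 read estimates, lay below both *Batrachocottus* libraries, with 2415 and 2550. Contigs under this name were also titled small ubiquitin like modifier 2a and WD repeat and FYVE domain-containing protein 2. Its reads are thus not all shown to be tropomodulin.

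**Figure D1:**
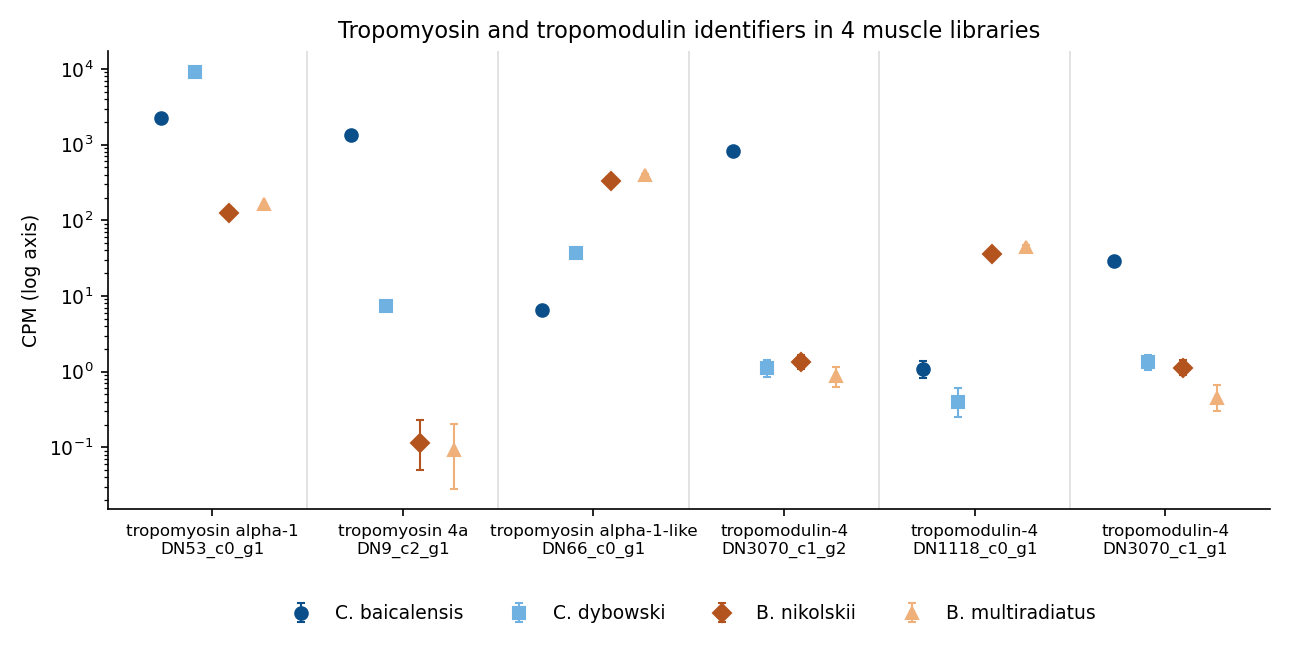
CPM (log axis) of the 3 tropomyosin and 3 tropomodulin-4 identifiers in the libraries of *C. baicalensis*, *C. dybowski*, *B. nikolskii* and *B. multiradiatus*, with 1 point per pooled library and bars for the 95% counting interval (hidden by the point where short). DN9_c2_g1, DN3070_c1_g2 and DN3070_c1_g1 stand high in *C. baicalensis* alone, at 1337, 816 and 28.6 CPM, while DN66_c0_g1 and DN1118_c0_g1 are higher in both *Batrachocottus* libraries.

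The first comparison asked how the pelagic and benthic genera differ. Differences between genera were tested with limma on log2(CPM + 1) over all 792 identifiers, with a call at a Benjamini-Hochberg adjusted p under 0.05, and 3 of the 6 were called, against a background of 53.3% called among all 792. DN53_c0_g1 (tropomyosin alpha-1 chain) was higher in *Comephorus*, by 4.98 ± 1.01 (SE) on the log2 scale (limma adjusted p = 0.0221). Its mean was 5711 ± 4938 CPM in *Comephorus* and 144 ± 27.0 CPM in *Batrachocottus* (SD, n = 2 each), a ratio of 39.8. DN1118_c0_g1 (tropomodulin-4) was lower in *Comephorus*, with a difference of -4.59 ± 0.84 (limma adjusted p = 0.0183), its mean in *Batrachocottus* being 54.8 times that in *Comephorus*. DN66_c0_g1 (tropomyosin alpha-1 chain-like) was lower as well, with a difference of -4.44 ± 1.05 (limma adjusted p = 0.0315) and a mean in *Batrachocottus* 17.0 times that in *Comephorus*. Among all 792 identifiers 29.3% were called higher and 24% lower in *Comephorus*, so the members' calls, 1 higher and 2 lower, are near the share that the whole table gives. None of the 3 calls held in every fit with 1 library left out, and calls over all 792 also fell in each of these fits. A genus then has 1 library and no spread of its own, so this loss is not particular to the members. Over these fits the difference ranged over 3.95 to 6.01 for DN53_c0_g1, -5.61 to -3.28 for DN66_c0_g1 and -4.87 to -4.30 for DN1118_c0_g1. Each of the 3 called identifiers carries titles of more than 1 protein, and none of the 3 with a tropomyosin or tropomodulin title alone was called. In a limma fit of the 318 identifiers with 1 title, 157 were called and 0 of the 3 members in that fit.

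The largest difference among the 6 belonged to an identifier that was not called. DN9_c2_g1 (tropomyosin 4a) differed by 6.59 ± 2.67 on the log2 scale (limma adjusted p = 0.104), and its 2 *Comephorus* libraries stood at 1337 and 7.37 CPM. Without *C. baicalensis* the difference was 2.93 (limma adjusted p = 0.0411) and without *C. dybowski* it was 10.25 (limma adjusted p = 0.0464), each with the single *Comephorus* library assumed to vary like *Batrachocottus*. DN3070_c1_g2 (tropomodulin-4) differed by 4.31 ± 3.12 (limma adjusted p = 0.275). This value rests on *C. baicalensis*, since the difference was 0.02 without it and 8.61 without *C. dybowski*. DN3070_c1_g1 differed by 2.24 ± 1.87 (limma adjusted p = 0.328). The median over all 792 identifiers was 1.40. It was 0.05 without *C. baicalensis*, 0.03 without *C. dybowski*, 1.12 without *B. nikolskii* and 1.02 without *B. multiradiatus*. The median thus changed with each library left out, and most without a pelagic one.

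With DESeq2 on read estimates recovered from the CPM, all 6 were called, against a background of 84.6%, DN9_c2_g1 and both DN3070_c1 identifiers as higher in *Comephorus*.

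By ranges alone, 5 of the 6 did not overlap between genera, 3 with *Comephorus* above and 2 below, and DN3070_c1_g2 was the exception. DN3070_c1_g1 is among those above, although its counting intervals in *C. dybowski* (1.05 to 1.67 CPM) and *B. nikolskii* (0.893 to 1.41 CPM) overlap. The background is 84.5% of the 792 identifiers without overlap (44.6% above and 39.9% below), which is close to the share of the members, 5 of 6.

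**Figure D2:**
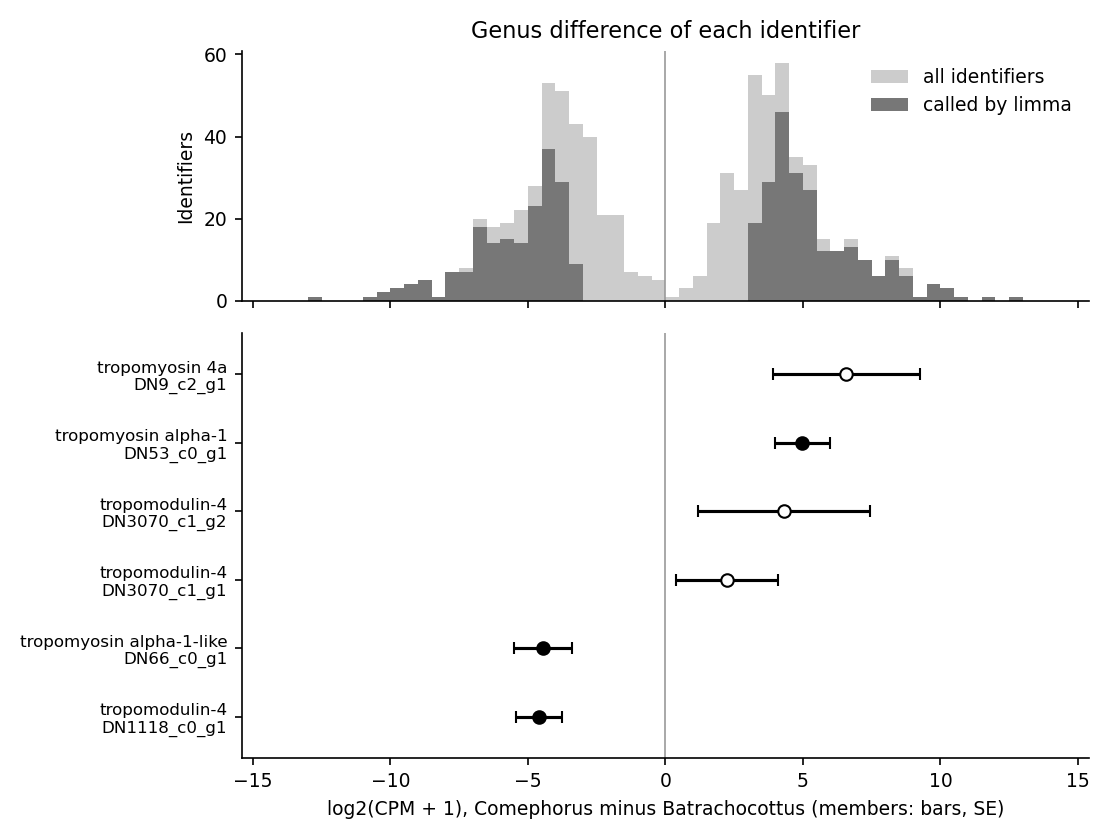
Upper panel, number of identifiers by their difference in log2(CPM + 1), *Comephorus* minus *Batrachocottus*, for all 792 identifiers (light) and for the 422 called by limma (dark). Lower panel, the same difference with its SE for each tropomyosin and tropomodulin-4 identifier, filled where called: DN53_c0_g1 at 4.98, DN66_c0_g1 at -4.44 and DN1118_c0_g1 at -4.59 are called, and DN9_c2_g1 at 6.59 has a wide bar and is not.

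Of the 6, DN53_c0_g1 and DN66_c0_g1 are listed in the unnormalized tables of all 4 libraries, where 4755 identifiers are listed for both genera. On these read estimates edgeR's quasi-likelihood test gave 5.29 ± 0.99 for DN53_c0_g1 (SE derived from the test's F statistic, edgeR adjusted p = 0.0416). For DN66_c0_g1 it gave -4.11 ± 0.99 (edgeR adjusted p = 0.0671). Thus 1 of these 2 was called, where 9.21% of the 4755 were called (5.01% higher and 4.21% lower in *Comephorus*). Both members are among the identifiers that the study called different in these libraries. The 4755 were not chosen that way, so their share is not a like background and no excess is read from it. Without *B. nikolskii* or without *B. multiradiatus* neither was called, with an edgeR adjusted p for DN53_c0_g1 of 0.140 and 0.108, and 0 of the 4755 identifiers were called by edgeR in either case, while 1274 and 1441 had an unadjusted p under 0.05.

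The second comparison was between the pelagic species. A ratio of at least 4, the fold of the study's own methods, separated *C. baicalensis* from *C. dybowski* for 5 of the 6 identifiers, against a background of 36.7% of the 792 (20.2% higher and 16.5% lower in *C. baicalensis*) and 6.62% of the 9787 identifiers in the unnormalized tables of this genus (3.06% higher). The 9787 were not chosen for a difference as the 792 were, and DN1118_c0_g1 is not among them, so their share is not a like background. With 1 library per species these ratios have no replicate check and no p-value.

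DN3070_c1_g2 (tropomodulin-4) was 730 times as high in *C. baicalensis* as in *C. dybowski*, with a counting interval of 571 to 955, and ranked 4 from the top of all 792 identifiers in this ratio on the CPM + 1 scale. DN9_c2_g1 (tropomyosin 4a) was 181 times as high (165 to 200.3) and ranked 10. DN3070_c1_g1 (tropomodulin-4) was 21.6 times as high (17.0 to 27.5) and ranked 54. The 3 identifiers with a single title are thus the 3 with the widest ratios in this direction among the 6.

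Both alpha-1 identifiers went the other way. DN53_c0_g1 was lower in *C. baicalensis*, *C. dybowski* having 4.15 times its level (4.12 to 4.17). DN66_c0_g1 was also lower in *C. baicalensis*, with 5.63 times its level in *C. dybowski* (5.02 to 6.32). DN1118_c0_g1, low in both species, had a ratio of 2.73 (1.64 to 4.68) and did not reach 4-fold.

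Within a genus edgeR's exact test was run with a dispersion of 0.2, the value in the study's methods, which is assumed and not measured. With it, an adjusted p under 0.001 and a log2 fold of 2, DN9_c2_g1 and DN3070_c1_g2 were among the 49 identifiers called of 9787 in *Comephorus*, and the other 3 members listed there were not called.

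**Figure D3:**
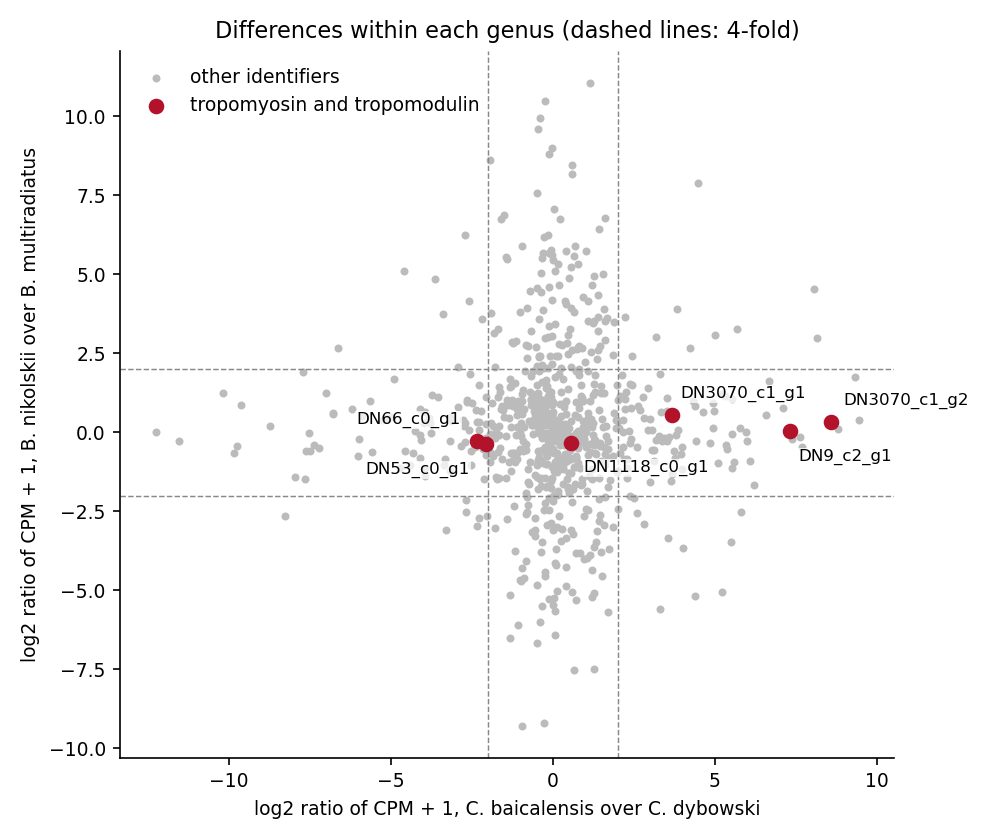
Each of the 792 identifiers by its log2 ratio of CPM + 1 within *Comephorus* (horizontal axis, *C. baicalensis* over *C. dybowski*) and within *Batrachocottus* (vertical axis, *B. nikolskii* over *B. multiradiatus*), with dashed lines at 4-fold. The 6 tropomyosin and tropomodulin identifiers (red) lie within the horizontal dashed lines but are spread along the horizontal axis, DN3070_c1_g2 and DN9_c2_g1 near its upper end.

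The third comparison was between the benthic species, and none of the 6 identifiers differed by 4-fold or more, against a background of 39% of the 792 (22.3% higher and 16.7% lower in *B. nikolskii*) and 11.5% of the 10189 identifiers in the unnormalized tables (6.79% higher). The 10189 were not chosen for a difference as the 792 were, and only 3 of the 6 are among them, so their share is not a like background. The ratios of *B. nikolskii* over *B. multiradiatus* were 0.765 for DN53_c0_g1, 0.830 for DN66_c0_g1 and 0.794 for DN1118_c0_g1, each with a counting interval below 1. They were 1.55 (1.09 to 2.25) for DN3070_c1_g2 and 2.50 (1.57 to 4.04) for DN3070_c1_g1, while that of DN9_c2_g1 could not be told from 1 at this depth (1.23, interval 0.387 to 5.21). The order of the benthic species depends on the scaling. As shares of the table total DN66_c0_g1 held 0.0418% in *B. nikolskii* against 0.0389% in *B. multiradiatus*, and DN1118_c0_g1 held 0.00443% and 0.00431%, so that *B. nikolskii* was higher on this scale, while DN53_c0_g1 kept its order (0.0155% and 0.0157%). The exact test called none of the 3 members listed in *Batrachocottus*, and 47 of the 10189 identifiers.

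Summed by title, the genera drew their reads from different identifiers. The tropomodulin-4 identifiers summed to 846 CPM in *C. baicalensis*, 2.84 CPM in *C. dybowski*, 38.0 CPM in *B. nikolskii* and 46.0 CPM in *B. multiradiatus*. In *C. baicalensis* 96.5% of this sum came from DN3070_c1_g2, whereas DN1118_c0_g1 held 93.5% in *B. nikolskii* and 97.1% in *B. multiradiatus*. In *C. dybowski*, where the sum was lowest, DN3070_c1_g1 held 46.8%, DN3070_c1_g2 held 39.4% and DN1118_c0_g1 held 13.8%. The mean log2 difference between genera of this sum was 0.41, against a within-genus SD of 3.89, so the genera were not separated. *C. dybowski* lay below both *Batrachocottus* species and *C. baicalensis* above them. Without DN1118_c0_g1, the identifier of mixed titles, the sums were 845, 2.45, 2.47 and 1.32 CPM in *C. baicalensis*, *C. dybowski*, *B. nikolskii* and *B. multiradiatus*. The log2 difference was then 4.25 against a within-genus SD of 3.98, and *C. dybowski* lay between the *Batrachocottus* species.

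The tropomyosin identifiers summed to 3563 CPM in *C. baicalensis*, 9247 CPM in *C. dybowski*, 459 CPM in *B. nikolskii* and 566 CPM in *B. multiradiatus*. Here both *Comephorus* sums lay above both *Batrachocottus* sums, with a log2 difference of 3.49 against a within-genus SD of 0.70 and a ratio of means of 12.5. In *C. baicalensis* DN53_c0_g1 held 62.3% and the tropomyosin 4a identifier DN9_c2_g1 held 37.5% of the sum. In *C. dybowski* DN53_c0_g1 held 99.5%. In *Batrachocottus* the larger part was DN66_c0_g1. Its share was 72.9% in *B. nikolskii*, beside 27.1% for DN53_c0_g1, and 71.2% in *B. multiradiatus*, beside 28.8%. These sums cover only titled identifiers among the 792 and count an identifier of mixed titles in full.

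**Figure D4:**
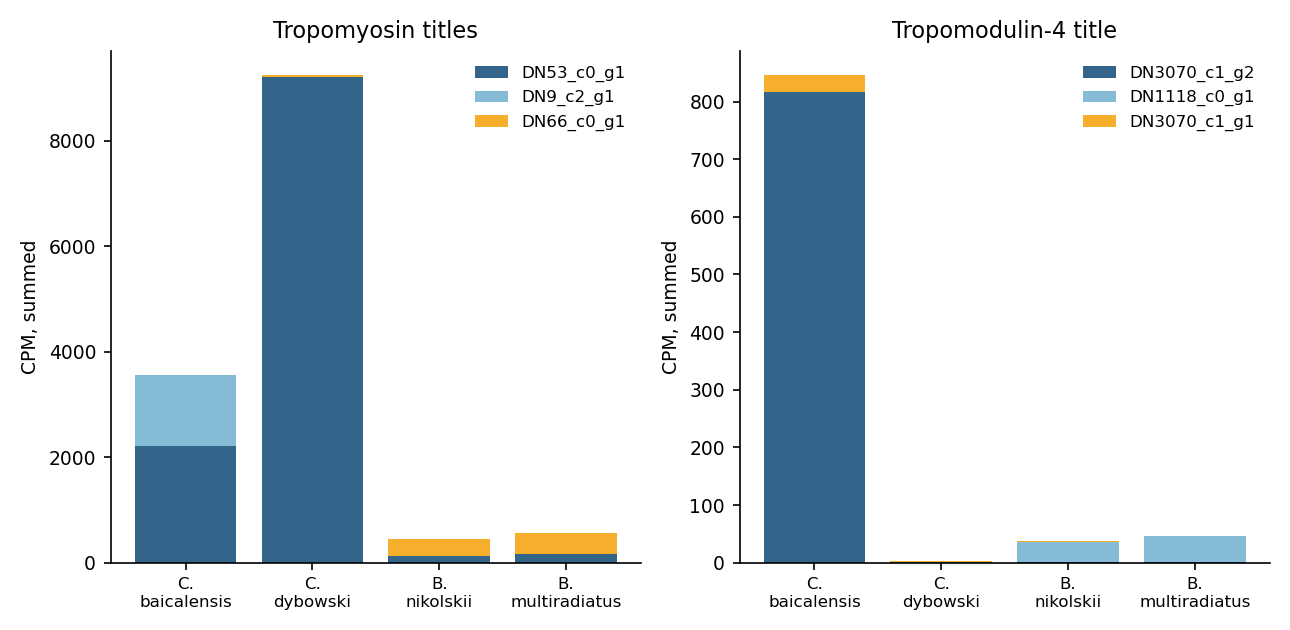
Summed CPM (linear axes from 0, each panel with its own scale) of the 3 identifiers with a tropomyosin title and of the 3 titled tropomodulin-4 in each library, stacked by identifier. The tropomyosin sums are 3563, 9247, 459 and 566 CPM and the tropomodulin-4 sums 846, 2.84, 38.0 and 46.0 CPM for *C. baicalensis*, *C. dybowski*, *B. nikolskii* and *B. multiradiatus*, and the identifier with the largest share differs between the genera.

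The rest of the thin filament was counted from lists of titles. Of 41 other identifiers with a troponin, actin or filament length, capping and anchoring title, 13 were called higher and 9 lower in *Comephorus* by limma and 19 were not called, with a median log2 difference of 2.65 beside 1.40 for all 792 identifiers. The background over all 792 is 29.3% called higher and 24% called lower, so 13 and 9 of 41 are near it. Of the 41, 15 had a single title.

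Troponins, the calcium switch that acts on tropomyosin, gave 17 identifiers, of which 4 were called higher and 3 lower, with a median of -1.46. The 5 with a single title, of which 2 were called higher and 0 lower by limma, had a median of 5.65, so the sign of the troponin median depends on the identifiers of mixed titles. DN537_c0_g4 (troponin C, skeletal muscle) had 9738 CPM in *C. baicalensis* and 7274 CPM in *C. dybowski*, was listed at 0 in *B. nikolskii* and had 28.3 CPM in *B. multiradiatus* (log2 difference 10.60, limma adjusted p = 0.0168). DN191_c0_g5, with the same title, was listed at 0 in *C. baicalensis* and had 23.1 CPM in *C. dybowski*, 2852 CPM in *B. nikolskii* and 81.3 CPM in *B. multiradiatus* (limma adjusted p = 0.0892, not called). Within *Comephorus*, 5 of the 17 troponin identifiers were at least 4-fold higher and 6 at least 4-fold lower in *C. baicalensis*, beside 20.2% and 16.5% of all 792.

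Of 8 muscle actin identifiers, the track on which tropomyosin lies, 3 were called higher and 3 lower, with a median of 0.59 (-1.29 for the 2 with a single title). The extremes were DN60_c0_g2 (alpha cardiac and alpha skeletal actin among 4 titles), with 52062 and 32914 CPM in the *Comephorus* species against 37.2 and 81.2 CPM in the *Batrachocottus* species, and DN15_c0_g1 (actin alpha 1, skeletal muscle a, among 4 titles), with 38.8 and 17.4 CPM against 11849 and 31063 CPM. Their log2 differences were 9.53 (limma adjusted p = 0.00815) and -9.47 (limma adjusted p = 0.00921). Within *Comephorus* 1 muscle actin identifier was at least 4-fold higher and 1 at least 4-fold lower in *C. baicalensis*, beside 20.2% and 16.5% of all 792.

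Of 4 cytoplasmic actin identifiers 2 were called higher and 1 lower, with a median of 0.27 (-3.95 for the 2 with a single title). DN103_c0_g2 (actin, cytoplasmic 2, among 3 titles) had 2237 and 2845 CPM in *Comephorus* against 2.09 and 1.26 CPM in *Batrachocottus* (log2 difference 9.90, limma adjusted p = 0.00815). DN254_c1_g1, titled actin, cytoplasmic 2 alone, had 1.25 and 4.63 CPM against 141 and 43.1 CPM (-4.47, limma adjusted p = 0.0271). No cytoplasmic actin identifier differed by 4-fold within *Comephorus*, beside 36.7% of all 792 that did.

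Proteins of filament length, capping and anchoring, such as nebulin and the barbed-end capping protein that acts opposite to tropomodulin, gave 13 identifiers, of which 5 were called higher and 2 lower, with a median of 3.51 (3.23 for the 6 with a single title). DN5278_c0_g1 (F-actin-monooxygenase mical2b, an enzyme that oxidizes actin and takes filaments apart, with 1 other title) had 628 and 673 CPM in *Comephorus* against 2.59 and 2.67 CPM in *Batrachocottus* (7.49, limma adjusted p = 0.00815). DN137_c1_g1 (xin actin-binding repeat-containing protein 2 and a ribosomal protein) had 2.77 and 2.51 CPM against 163 and 30.0 CPM (-4.29, limma adjusted p = 0.0347). Here 1 identifier was at least 4-fold higher and 1 at least 4-fold lower in *C. baicalensis* than in *C. dybowski*, beside 20.2% and 16.5% of all 792.

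For each member the 3 titled identifiers with the most similar pattern over the 4 libraries were found by the mean absolute difference of log2(CPM + 1) after centring each on its own mean, as a description of 4 values. DN671_c0_g2 (a regulatory subunit of the 26S proteasome) was nearest both to DN9_c2_g1 (difference 0.64) and to DN3070_c1_g2 (0.50), with 693, 2.38, 0.0400 and 0.425 CPM in *C. baicalensis*, *C. dybowski*, *B. nikolskii* and *B. multiradiatus*. Next to DN9_c2_g1 came 2 identifiers with troponin among their titles. DN267_c0_g1 (troponin C, skeletal muscle, with nudC and reticulon-4-like) had 8185, 169, 18.4 and 36.0 CPM at a difference of 0.71, and DN55_c0_g3 (troponin I, fast skeletal muscle-like, with an aldehyde dehydrogenase) had 6491, 8.24, 5.39 and 3.84 CPM at 0.82. All these patterns share a high value in *C. baicalensis*. For DN3070_c1_g2 the other near ones were DN17_c0_g1 (tubulin alpha chain-like and a ubiquitin hydrolase, 0.53) and DN880_c0_g2 (IST1 homolog, 0.55).

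DN53_c0_g1 was nearest to DN1505_c0_g1 (60S ribosomal protein L5 and 2 other titles, 0.17), DN328_c0_g2 (myosin binding protein Hb and FAM3C-like, 0.38) and DN1365_c2_g2 (prohibitin-2, 0.39). DN66_c0_g1 was nearest to DN14_c1_g2 (0.23) and DN19_c0_g1 (0.23), both of mixed titles, and to DN4226_c0_g1 (rho GTPase-activating protein 17b, 0.27). DN1118_c0_g1 was nearest to DN36176_c0_g1 (small nuclear ribonucleoprotein-associated proteins B and B', 0.07), DN2733_c0_g1 (F-box only protein 28 and elongation factor 1-beta, 0.19) and DN672_c0_g2 (2 ribosomal proteins and a splicing factor, 0.20). DN3070_c1_g1 was nearest to DN3549_c0_g2 (ribosome-binding protein 1a, 0.27), DN6195_c0_g1 (molybdopterin synthase, 0.27) and DN53_c0_g2 (0.36). The last carries the titles lupus La protein and METTL5 that DN53_c0_g1 also carries, and it had 94.7, 12.8, 9.82 and 3.98 CPM in *C. baicalensis*, *C. dybowski*, *B. nikolskii* and *B. multiradiatus*, against the 2220, 9203, 124 and 163 CPM of DN53_c0_g1.

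Titles of fibre types and of other cell types also differed between the libraries. The fast and the slow or cardiac fibre lists share troponin identifiers with the thin filament lists above, so they are not separate from them. Many of their identifiers carry titles of more than 1 protein and are counted in full in these sums. A single title was held by 3 of the 7 keratin, 4 of the 9 hemoglobin and 6 of the 15 fast fibre identifiers and by the perilipin identifier. All collagen, slow or cardiac fibre and smooth muscle identifiers had more than 1 title. Within *Comephorus* the 7 keratin identifiers (epidermis) summed to 589 CPM in *C. baicalensis* and 183 CPM in *C. dybowski*, a ratio of 3.21, the 2 collagen identifiers to 138 and 14.1 CPM (9.82) and the 1 perilipin identifier (lipid droplets) to 30.8 and 2.21 CPM (13.9). These ratios have the direction of DN9_c2_g1, DN3070_c1_g2 and DN3070_c1_g1. Of the 7 keratin identifiers, however, 2 were at least 4-fold higher in *C. baicalensis*, beside 20.2% of all 792. The keratin median log2 ratio of CPM + 1 was 0.13. The hemoglobin sum (red blood cells) was slightly lower in *C. baicalensis*, with 3131 CPM against 3382 CPM (0.926). In *Batrachocottus* the keratin sums were 29.0 CPM in *B. nikolskii* and 894 CPM in *B. multiradiatus*, and perilipin had 0.488 and 70.5 CPM. The fast fibre sum was 0.880 times and the slow or cardiac fibre sum 0.893 times as high in *C. baicalensis* as in *C. dybowski*. Single identifiers differed in both directions. Of the 15 fast fibre identifiers 5 were at least 4-fold higher and 4 at least 4-fold lower in *C. baicalensis*. For the 5 slow or cardiac ones the numbers were 1 and 2, beside 20.2% and 16.5% of all 792. The 1 identifier with a smooth muscle title had 227, 373, 182 and 7.33 CPM in *C. baicalensis*, *C. dybowski*, *B. nikolskii* and *B. multiradiatus*. The 1 identifier with vitellogenin (liver or egg) among its titles had 2.755, 2.843, 1356 and 1.68 CPM in the same order. None of the keratin, collagen, perilipin or smooth muscle identifiers was listed at 0 in any library.

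Between genera, the fast fibre sums of 36536 and 41532 CPM in *Comephorus* against 13175 and 12403 CPM in *Batrachocottus* and the 9 hemoglobin identifiers (red blood cells), with 3131 and 3382 CPM against 1096 and 734 CPM, had the direction of the tropomyosin sum. By limma 4 of the 15 fast fibre identifiers were called higher and 2 lower in *Comephorus*, and 5 of the 9 hemoglobin identifiers higher and 2 lower, beside 29.3% and 24% of all 792. The slow or cardiac fibre sums were also higher in *Comephorus*, at 2112 and 2366 CPM against 488 and 194 CPM. Of their 5 identifiers, however, 1 was called higher and 2 lower by limma. Their median log2 difference was -3.35, beside 1.40 for all 792, so sum and median went opposite ways. For hemoglobin, 1 identifier was listed at 0 in *B. nikolskii*. The collagen sums, 138 and 14.1 CPM in *Comephorus* against 855 and 518 CPM in *Batrachocottus*, had the direction of DN66_c0_g1 and DN1118_c0_g1, with 0 of the 2 identifiers called higher and 1 lower. The part of cell or fibre composition in the tropomyosin and tropomodulin differences was not tested.

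The identifiers come from assemblies made separately for each species and then joined, and every contig received a running number in ascending order at that step. The numbers went with the library in which an identifier was highest, a relation looked at after the values had been seen. Among 307 identifiers with 1 titled contig, *C. baicalensis* or *C. dybowski* was highest for 29 of 33 numbered up to 20000, for 36 of 41 from there to 40000, for 44 of 55 to 60000 and for 32 of 45 to 80000. A *Batrachocottus* species was highest for 29 of 38 numbered from 80001 to 100000, 48 of 57 to 120000 and 31 of 38 to 140000.

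The tropomyosin and tropomodulin contigs had their places in this order. DN53_c0_g1, DN66_c0_g1 and DN1118_c0_g1 carry other titles too, so their CPM is not shown to be that of this contig alone. DN3070_c1_g1 has more than 1 titled contig (67931 and 67933) and is not among the 307. The tropomyosin contig of DN53_c0_g1, an identifier highest in *C. dybowski*, falls in the first interval, in which *C. dybowski* was highest for 22 of 33. Those of DN9_c2_g1 and of both DN3070_c1 identifiers, highest in *C. baicalensis*, fall in the intervals that end at 60000 and 80000, in which *C. baicalensis* was highest for 29 of 55 and 21 of 45. That of DN66_c0_g1 falls in the interval from 80001 to 100000, in which *B. multiradiatus*, the highest species of DN66_c0_g1, was highest for 8 of 38 and *B. nikolskii* for 21. That of DN1118_c0_g1 falls in the last interval, in which *B. multiradiatus*, its highest species, was highest for 25 of 38. In addition, 116 of the 657 titled identifiers had a transcript name that occurs under more than 1 running number, and 339 had titles of more than 1 protein. How far the differences of these 6 identifiers follow the species whose assembly gave the contig was not tested.

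**Figure D5:**
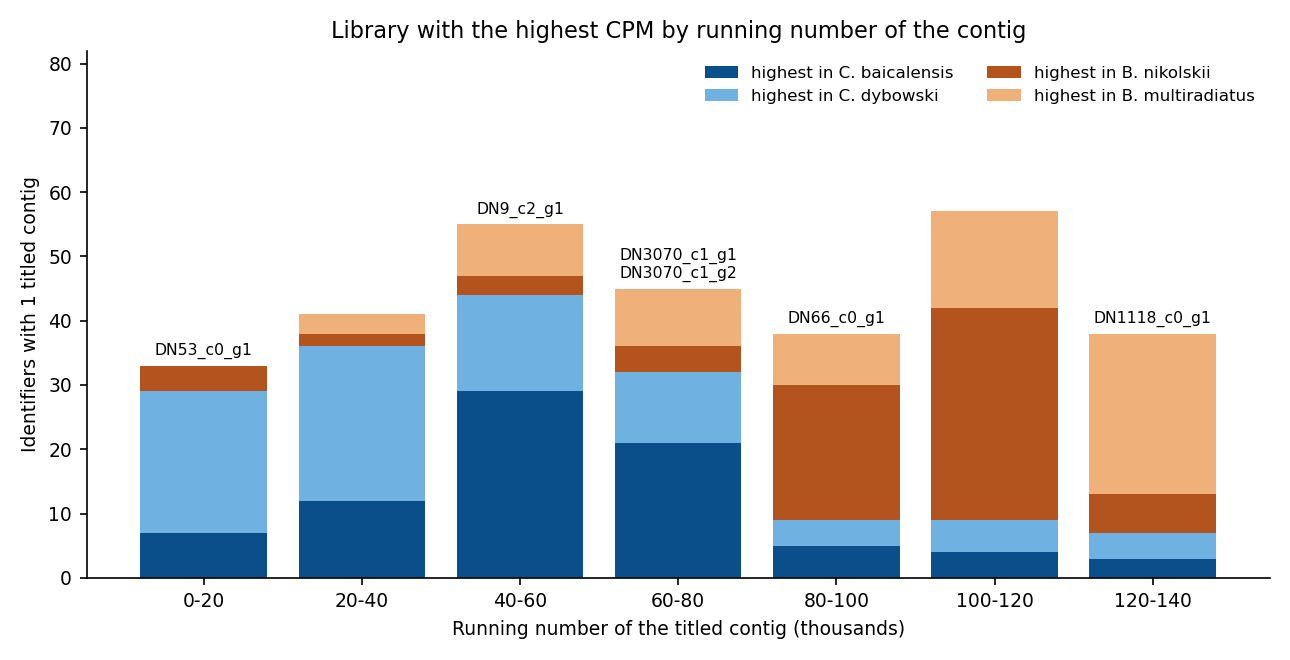
Number of identifiers with 1 titled contig by the running number of that contig (horizontal axis, intervals of 20000) and by the library in which the identifier has its highest CPM (colours). The tropomyosin and tropomodulin-4 identifiers are named above the interval of the contig with that title, whether or not the bars count them. *Comephorus* libraries are highest for most identifiers below 80000 (29 of 33 in the first interval) and *Batrachocottus* libraries for most above it (31 of 38 in the last).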

How the data were processed

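Skeletal muscle RNA of 4 species was sequenced as 1 pooled, non-stranded paired-end library each, and species were grouped by genus from the sample titles. The authors trimmed reads (Trimmomatic 0.36), built a Trinity assembly per species, merged the assemblies by CD-HIT clustering, estimated reads with Salmon and compared species pairwise with edgeR 4.0.3. The deposited unnormalized tables hold estimated counts per Trinity gene identifier, rounded to whole numbers, with lowest values of 57 to 61, for 9787 identifiers in *Comephorus* and 10189 in *Batrachocottus*. Absence from the table of a genus does not make an identifier 0 there. The deposited normalized tables hold CPM of an adjusted library size that the authors computed, for 792 identifiers.

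Titles came from the study's annotation table, read in part, with a title for 657 of the 792. Members are all identifiers with a tropomyosin or tropomodulin title in the part that was read. Titles in the rest could add to them, so the members, the sums by title and the list counts may be incomplete. The members and lists were chosen with earlier results of these data known. Named besides them are the 3 nearest patterns of each member and the extreme of each thin filament list in each direction.

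Computation used R 4.3.3 with limma 3.58.1 (eBayes with trend, log2(CPM + 1)), edgeR 4.0.16 (quasi-likelihood, TMM) and DESeq2 1.42.0, and Python 3.11.15. Adjusted p-values are Benjamini-Hochberg over all identifiers tested, with a call under 0.05. The differences are on the log2(CPM + 1) scale, which understates those of low identifiers. Counting intervals are exact Poisson for levels and exact binomial for ratios. CPM times adjusted size was within 0.1 of a whole number for 19.3% to 23.5% of values, so count tools on these values took rounded estimates as an alternative. The fits were also run on simulated data with a dispersion fixed at 0.1. That value was not estimated from these libraries, so the run does not show the error rates of the fits here. Other alternatives were pseudocounts of 0.1 and 10, a mean of at least 10 CPM, CPM of the table total, single-title identifiers only, and omission of each library. The count tools on rounded estimates, DESeq2 and omitted libraries for the unnormalized tables, and the view by contig number were added after the data had been seen. No sequence was used.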

Additional observations from a re-analysis of the deposited data

How the results depend on the processing

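The 3 members called by limma stayed 3 with pseudocounts of 0.1 and 10, a mean of at least 10 CPM, CPM of the table total and edgeR on recovered estimates. Over all 792, limma called 399 and 378 with these pseudocounts and 419 with CPM of the table total. With a mean of at least 10 CPM it called 419 of 762. With edgeR DN66_c0_g1 was lost (edgeR adjusted p = 0.0651) and DN9_c2_g1 gained (edgeR adjusted p = 0.0496). The count was 0 of 3 tested among identifiers with 1 title, where limma called 157 of 318. At an unadjusted p under 0.05 by limma it was also 0 of 3, against 189 of 318. The count was 6 with DESeq2 on recovered estimates, which called 84.6% of all 792. Leaving out 1 library lowered the count of 3 in each case, as it lowered the calls over all 792. Over all 792, limma called 158, 69, 0 and 196 without *C. baicalensis*, *C. dybowski*, *B. nikolskii* and *B. multiradiatus*, against 422 with all, and edgeR on recovered estimates 242. Such a fit takes the lone library to vary like the other genus.

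On counts, the 1 member called by edgeR became 2 with DESeq2 (1808 of 4755 called, against 438). The members called by edgeR changed with the library left out, and calls over all 4755 fell in every such fit. The 5 members 4-fold apart within *Comephorus* became 2 with the exact test. The tropomyosin sum with 1 title, DN9_c2_g1 alone, had a log2 difference of 6.59 in place of 3.49. With 1 title, called identifiers numbered 2 for troponin (of 5, against 7), 1 for muscle actin (of 2, against 6), 1 for cytoplasmic actin (of 2, against 3) and 3 for capping and anchoring (of 6, against 7), where fewer identifiers were tested. No genus difference of a member or of a title sum reversed its sign. List medians did with 1 title (troponin 5.65 against -1.46, muscle actin -1.29 against 0.59, cytoplasmic actin -3.95 against 0.27). With CPM of the table total the ratio of *B. nikolskii* over *B. multiradiatus* turned to 1.05, against 0.812, for the tropomyosin sum and to 1.07, against 0.825, for tropomodulin-4. With 1 title the tropomodulin-4 sum had a log2 difference of 4.25, against 0.41. Over alternatives to the limma fit DN53_c0_g1 ranged over 3.95 to 6.01 (called in 7 of 10), DN66_c0_g1 over -5.61 to -3.28 (5 of 10), DN1118_c0_g1 over -5.77 to -2.22 (6 of 10), DN9_c2_g1 over 2.93 to 12.68 (4 of 11), DN3070_c1_g2 over 0.02 to 8.61 (1 of 11) and DN3070_c1_g1 over 0.40 to 4.24 (1 of 10). CPM of the table total shifted the median of all identifiers by -0.17, to 1.23, and leaving out 1 library gave 0.03 to 1.12. No paired analysis was possible, since each library is a pool of a different species without a partner in the other genus. Levels near 1 CPM rest on 22 to 91 read estimates, and nothing here measures the spread between fish.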
